A study of Mus musculus with 12 samples.

Results

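Cyp3a11, Cyp3a25 and Cyp3a13 are mouse members of the cytochrome P450 3A family. They were measured in the colon by 1 probe set each, chosen by gene symbol in the array annotation, which made 3 of 12393 genes and 3 of the 22626 probe sets tested. The samples were 12 Affymetrix 430A arrays of RNA from colon epithelium that had been scraped off the wall. Each array held the pooled RNA of 3 male mice, and each of 4 groups had 3 arrays, so that a group stood for 9 mice. The groups were POR-null mice on quercetin, POR-null mice on control diet, wild type C57BL/6 mice on quercetin and wild type C57BL/6 mice on control diet. All mice were 6 to 8 weeks old and had spent 14 days on a soya-free RM3 powder. The quercetin groups then received the powder with 6200 ppm quercetin, about 7 mg for each mouse, for 24 hours, and the control groups received the powder alone. POR-null mice lack cytochrome P450 reductase, for which the labels name no promoter or Cre line. Lines of this name are known from the literature to lose the gene in hepatocytes. The Por transcript itself is not analysed here. The design asks what a day of quercetin, a flavonol of plant foods, does in each genotype and whether the response depends on the genotype.

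CYP3A enzymes sit in the endoplasmic reticulum, take electrons from POR and oxidise a wide range of drugs, steroids and dietary compounds. In the intestine they act in enterocytes and reduce the amount of an oral compound that reaches the blood. Their genes are known targets of the pregnane X receptor (PXR, Nr1i2), a nuclear receptor that binds many foreign compounds, and of the related receptor CAR (Nr1i3). Cyp3a11 is the main inducible CYP3A gene of mouse liver and small intestine, Cyp3a25 is a further member expressed in liver and gut, and Cyp3a13 is known as a form expressed along the gut.

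In the RefSeq annotation of GRCm38.p6 the mouse has 9 protein-coding Cyp3a genes on chromosome 5. Cyp3a11 and Cyp3a25 are direct neighbours within a cluster of 8 adjacent genes, and 121 protein-coding genes separate Cyp3a13 from that cluster. The promoters are shown because the signals of these genes are compared array by array below, and because known regulators of the family bind DNA near its genes. Each line gives the 250 bases before the RefSeq start, read 5′ to 3′ on the minus strand. The windows lie at chr5:145879855-145880104 for Cyp3a11, chr5:146009619-146009868 for Cyp3a25 and chr5:137921620-137921869 for Cyp3a13. Capitals mark the nuclear receptor core motifs AGGTCA and AGTTCA on either strand and the hepatocyte nuclear factor 4 motif CAAAGTCCA.
Cyp3a11: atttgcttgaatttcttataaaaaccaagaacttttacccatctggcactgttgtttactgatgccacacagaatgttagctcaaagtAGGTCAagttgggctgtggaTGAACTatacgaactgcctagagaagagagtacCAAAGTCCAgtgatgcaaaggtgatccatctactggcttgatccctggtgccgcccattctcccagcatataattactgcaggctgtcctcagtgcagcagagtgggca
Cyp3a25: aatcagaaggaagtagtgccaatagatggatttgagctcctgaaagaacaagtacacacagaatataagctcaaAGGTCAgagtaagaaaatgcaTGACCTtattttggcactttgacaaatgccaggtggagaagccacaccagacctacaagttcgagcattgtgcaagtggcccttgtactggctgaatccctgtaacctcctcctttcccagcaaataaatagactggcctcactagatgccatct
Cyp3a13: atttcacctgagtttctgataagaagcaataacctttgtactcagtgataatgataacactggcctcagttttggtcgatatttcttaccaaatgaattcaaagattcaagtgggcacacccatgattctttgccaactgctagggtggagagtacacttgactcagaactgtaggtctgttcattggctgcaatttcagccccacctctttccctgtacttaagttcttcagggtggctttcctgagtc
The Cyp3a11 window held AGGTCA at position -162, AGTTCA on the opposite strand at -142 and CAAAGTCCA at -109, counted from the start. The Cyp3a25 window held AGGTCA at -176 and again, on the opposite strand, at -155. The Cyp3a13 window held none of these letters. Of 32851 promoter windows of this length, 14% held AGGTCA, 11.8% held AGTTCA and 0.384% held CAAAGTCCA, so single core motifs are common. Paired core motifs of either spelling were searched as direct repeats with 1, 3, 4 or 5 bases between them and as everted repeats with 6 or 8 bases between them, the spacings known for such receptors. None of the 3 windows held a pair, and 0.00913% to 0.067% of all windows held any 1 kind. Such matches describe letters and not binding. Although the genes are neighbours, the Cyp3a11 and Cyp3a25 windows shared 55.9% of aligned bases, near the 57.3% of Cyp3a11 with Cyp3a13. The closest window to that of Cyp3a25 was that of Cyp3a59, with 94.8% identity. Whether probes for 1 gene also take up RNA of a paralog was not tested, and transcript and probe sequences were not used here. Cyp3a59 and Cyp3a57 had no probe set under their own names.

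Signal is given on the deposited log2 scale, on which 1 unit is a 2-fold difference. Cyp3a11 (1416809_at) was the most uneven of the 3 transcripts. It read 8.57, 9.11 and 8.07 on the 3 arrays of POR-null mice on quercetin and 8.65, 8.12 and 5.87 on those of POR-null mice on control diet. In wild type mice it read 5.60, 8.50 and 7.22 on quercetin and 9.71, 8.89 and 8.77 on control diet. The low readings were wild type quercetin array 1 and POR-null control array 3, which lay below every other array by more than a unit. Cyp3a11 stood above the array's median probe set on 10 of 12 arrays. Group means were 8.58 (SD 0.52) for POR-null on quercetin, 7.55 (SD 1.48) for POR-null on control diet, 7.11 (SD 1.45) for wild type on quercetin and 9.12 (SD 0.51) for wild type on control diet (n = 3 arrays each).

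Cyp3a25 (1424973_at) gave a dim signal, below the array's lower quartile of probe sets on 4 arrays and above the median on 1. It read 4.77, 5.83 and 4.90 in POR-null mice on quercetin and 5.0, 4.51 and 3.96 in POR-null mice on control diet. Wild type mice had 3.82, 5.10 and 4.24 on quercetin and 6.39, 4.69 and 5.02 on control diet. The arrays lowest for Cyp3a11 were lowest here too, and wild type control array 1 was the highest for both genes. Group means were 5.17 (SD 0.58) and 4.49 (SD 0.52) in POR-null mice on quercetin and on control diet, and 4.39 (SD 0.65) and 5.37 (SD 0.90) in wild type mice on quercetin and on control diet. No detection calls were used, so it is not known whether the signal stood above background on the dimmest arrays.

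Cyp3a13 (1419523_at) was bright and even, between the 92.1 and 96.3 percentile of each array. It read 9.84, 9.78 and 9.60 in POR-null mice on quercetin and 9.15, 9.26 and 9.70 in POR-null mice on control diet. In wild type mice it read 8.96, 9.75 and 9.83 on quercetin and 9.30, 9.61 and 9.76 on control diet. All 4 groups overlapped with each other, and wild type quercetin array 1 was again the lowest. Group means were 9.74 (SD 0.12), 9.37 (SD 0.29), 9.51 (SD 0.48) and 9.56 (SD 0.23) for POR-null quercetin, POR-null control, wild type quercetin and wild type control.

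**Figure D1:**
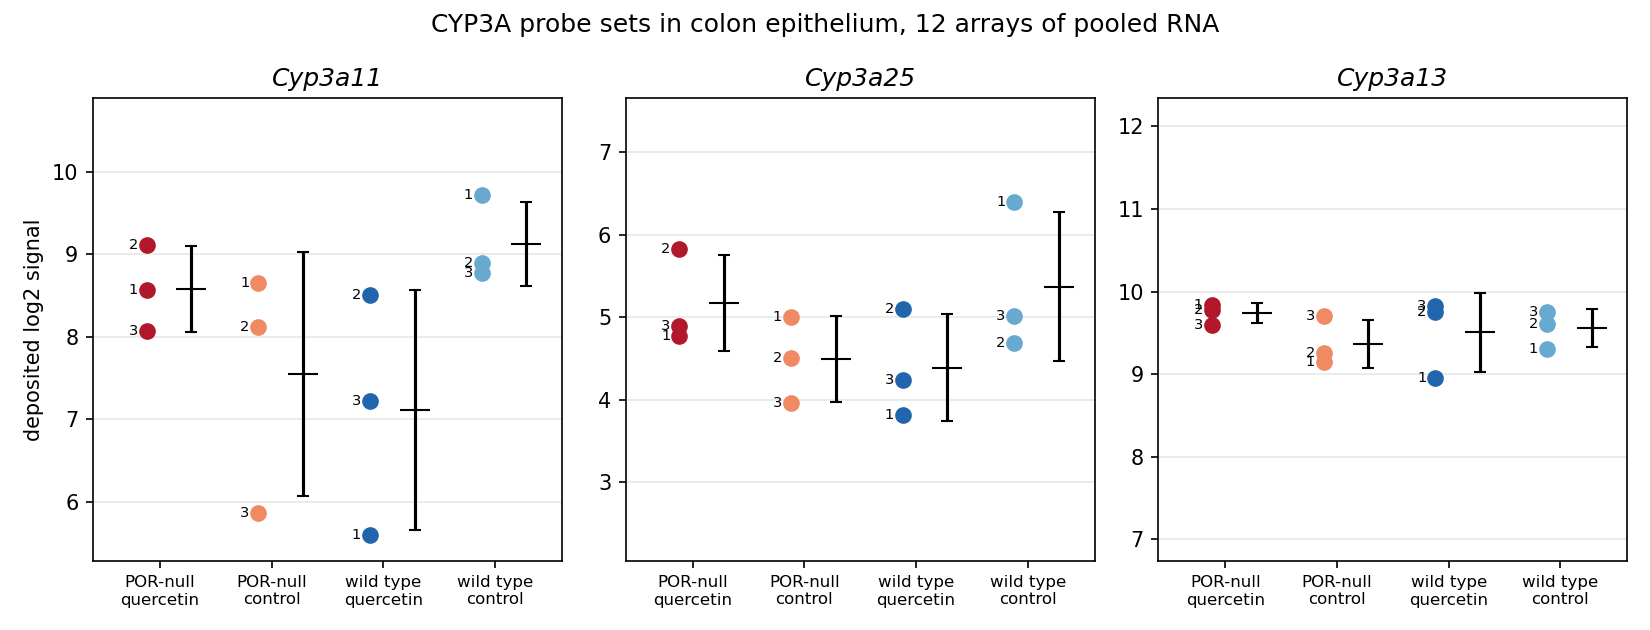
Deposited log2 signal (vertical axis) of Cyp3a11, Cyp3a25 and Cyp3a13 on each of 12 arrays in 4 groups; points carry the array number, and the bar beside them is the mean with SD (n = 3). Each panel has its own axis of the same span, so spreads can be compared between panels but heights cannot. Cyp3a11 ran from 5.60 to 9.71, while Cyp3a13 stayed between 8.96 and 9.84.

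The spread between arrays of 1 group was wide for these genes. The within-group SD was 1.10 for Cyp3a11, 0.68 for Cyp3a25 and 0.31 for Cyp3a13, against a median of 0.14 over all probe sets. Cyp3a11 ranked 59 and Cyp3a25 ranked 195 of 22626 by this SD. In the order of group means, Cyp3a11 and Cyp3a25 both ran from wild type control through POR-null quercetin and POR-null control to wild type quercetin. Neighbours in that order overlapped in every case, and for Cyp3a11 the gaps of 0.54, 1.03 and 0.44 compare with larger SDs of the neighbouring groups of 0.52, 1.48 and 1.48. For Cyp3a13 the order was POR-null quercetin, wild type control, wild type quercetin and POR-null control, with gaps of 0.05 to 0.18.

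The other members of the family gave almost no signal. Cyp3a16 read 2.90 to 3.14 and Cyp3a44 read 3.05 to 3.38 over the 12 arrays, and both were below the lower quartile of probe sets on 12 of 12. A probe set shared by Cyp3a41a and Cyp3a41b read 3.18 to 3.70 and was likewise below the lower quartile throughout. Cyp3a44 averaged 3.27 in wild type mice on quercetin and 3.07 in wild type mice on control diet, a difference of 0.20 (SE 0.06, adjusted p 0.952 by limma), at signals near the bottom of the array. Those arrays read 3.25 to 3.29 and 3.05 to 3.11, the direction opposite to Cyp3a11. The unadjusted p by limma was 0.00829, at rank 190, where 5.15% of all probe sets were under 0.05. On control diet Cyp3a44 averaged 3.26 in POR-null mice, a difference of 0.19 from wild type (SE 0.06, unadjusted p 0.0112 by limma). There 6.79% of all probe sets were under 0.05.

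Quercetin in wild type mice gave the widest separation of Cyp3a11, although no CYP3A gene passed the test. The 3 wild type arrays on quercetin, at 5.60 to 8.50, lay wholly below the 3 on control diet, at 8.77 to 9.71, with means of 7.11 and 9.12. The difference was -2.02 (SE 0.71, 95% interval -3.55 to -0.48), which is a 4.06-fold lower mean signal. With Cyp3a11 itself counted, 16 of 22626 probe sets (0.0707%) had a difference at least as large in size. Ranked by the unadjusted p of limma, which takes the spread into account, Cyp3a11 stood at 324. By limma the adjusted p was 0.952, with an unadjusted p of 0.0139. Of all probe sets 0% passed the adjusted threshold of 0.05 in this comparison, 5.15% were under 0.05 unadjusted and 3.66% lay without overlap in the lower direction. Cyp3a25 averaged 4.39 on quercetin and 5.37 on control diet, a difference of -0.98 (SE 0.44, interval -1.93 to -0.03), with overlapping groups and an adjusted p by limma of 0.957. Cyp3a13 averaged 9.51 on quercetin and 9.56 on control diet, a difference of -0.04 whose interval ran from -0.50 to 0.41. With 3 arrays against 3 the exact two-sided permutation test cannot go below 0.1, which was the value for Cyp3a11. Without wild type quercetin array 1 the Cyp3a11 difference was -1.26, and without wild type control array 1 the Cyp3a25 difference was -0.47.

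In POR-null mice the means of Cyp3a11, Cyp3a25 and Cyp3a13 were higher on quercetin than on control diet, and none passed. Cyp3a11 averaged 8.58 on quercetin and 7.55 on control diet, a difference of 1.04 (SE 0.71, 95% interval -0.50 to 2.57). The groups overlapped, since control arrays 1 and 2, at 8.65 and 8.12, lay within the range of the quercetin arrays. Cyp3a25 differed by 0.68 (SE 0.44) and Cyp3a13 by 0.37 (SE 0.21), and limma gave an adjusted p of 1.0 for each of the 3 genes. In this comparison 0% of all probe sets passed and 2.82% were under 0.05 unadjusted. Without POR-null control array 3 the Cyp3a11 difference was 0.20, and without POR-null quercetin array 2 the Cyp3a25 difference was 0.34.

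Between the genotypes on control diet, Cyp3a11 lay lower in POR-null mice on every array, at 5.87 to 8.65, than in wild type mice, at 8.77 to 9.71. The difference was -1.58 (SE 0.71, 95% interval -3.11 to -0.04), with an adjusted p of 0.734 by limma. Of all probe sets 0% passed, 6.79% were under 0.05 unadjusted and 4.86% were lower without overlap. The separation of POR-null control array 1 from wild type control array 3 was small, at 8.65 and 8.77. Cyp3a25 averaged 4.49 in POR-null mice and 5.37 in wild type mice, a difference of -0.88 (SE 0.44, adjusted p by limma 0.753). Cyp3a13 averaged 9.37 in POR-null mice and 9.56 in wild type mice, a difference of -0.19 (SE 0.21). Without POR-null control array 3 the Cyp3a11 difference was -0.74, and without wild type control array 1 the Cyp3a25 difference was -0.36.

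On quercetin the sign was the opposite, with Cyp3a11 at 8.58 in POR-null mice and 7.11 in wild type mice. The difference was 1.48 (SE 0.71, 95% interval -0.06 to 3.01), the groups overlapped, and the adjusted p by limma was 0.998. Cyp3a25 differed by 0.78 (SE 0.44) and Cyp3a13 by 0.23 (SE 0.21), with the same adjusted p. Of all probe sets 0% passed and 2.39% were under 0.05 unadjusted. Without wild type quercetin array 1 the Cyp3a11 difference was 0.72, and without POR-null quercetin array 2 the Cyp3a25 difference was 0.45.

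The interaction asks whether the quercetin difference in POR-null mice is the same as that in wild type mice. For Cyp3a11 the quercetin difference was 1.04 in POR-null and -2.02 in wild type mice, and their difference was 3.05 (SE 1.00, 95% interval 0.88 to 5.22). By limma the adjusted p over all probe sets was 0.998, with an unadjusted p of 0.00948. For Cyp3a25 the interaction was 1.66 (SE 0.62, interval 0.31 to 3.01) and for Cyp3a13 it was 0.41 (SE 0.30, interval -0.23 to 1.06), both with an adjusted p of 0.998 by limma. Of all probe sets 0% passed and 4.74% were under 0.05 unadjusted. An exact two-sided permutation of the diet labels within each genotype, which can reach 0.005, gave 0.035 for Cyp3a11, 0.06 for Cyp3a25 and 0.285 for Cyp3a13. Its null is no diet difference in either genotype, so it is not a test of the interaction alone. Without both low arrays the Cyp3a11 interaction was 1.46, with an exact permutation p of 0.11. The 4 pairwise comparisons and the interaction share arrays, so they are not independent of each other. Averaged over the genotypes, quercetin gave differences of -0.49 (SE 0.50) for Cyp3a11, -0.15 (SE 0.31) for Cyp3a25 and 0.16 (SE 0.15) for Cyp3a13. Averaged over the diets, POR-null minus wild type gave -0.05 (SE 0.50), -0.05 (SE 0.31) and 0.02 (SE 0.15) for the same genes.

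**Figure D2:**
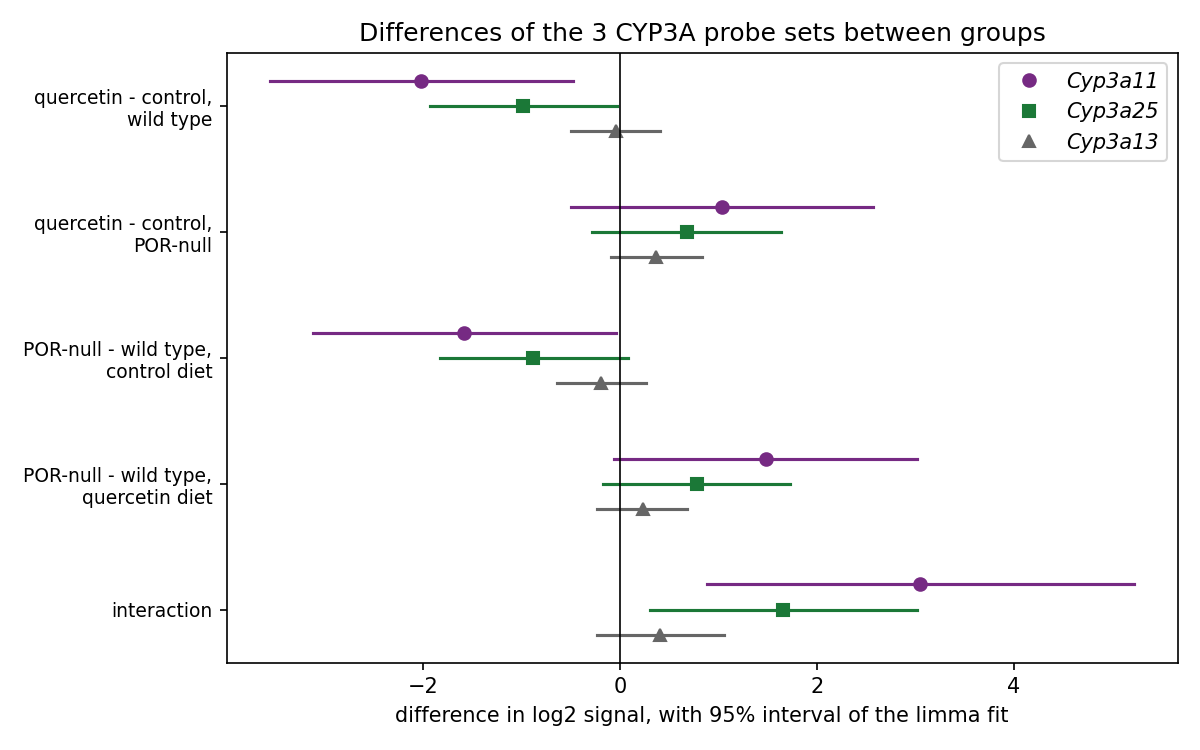
Differences in log2 signal (horizontal axis) of Cyp3a11, Cyp3a25 and Cyp3a13 for quercetin minus control diet in each genotype, POR-null minus wild type on each diet, and the interaction; points are estimates of the limma fit and lines their 95% intervals (3 arrays a group). The Cyp3a11 and Cyp3a25 points share their sign in all 5 comparisons, and those of Cyp3a13 lie nearest to 0.

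**Figure D3:**
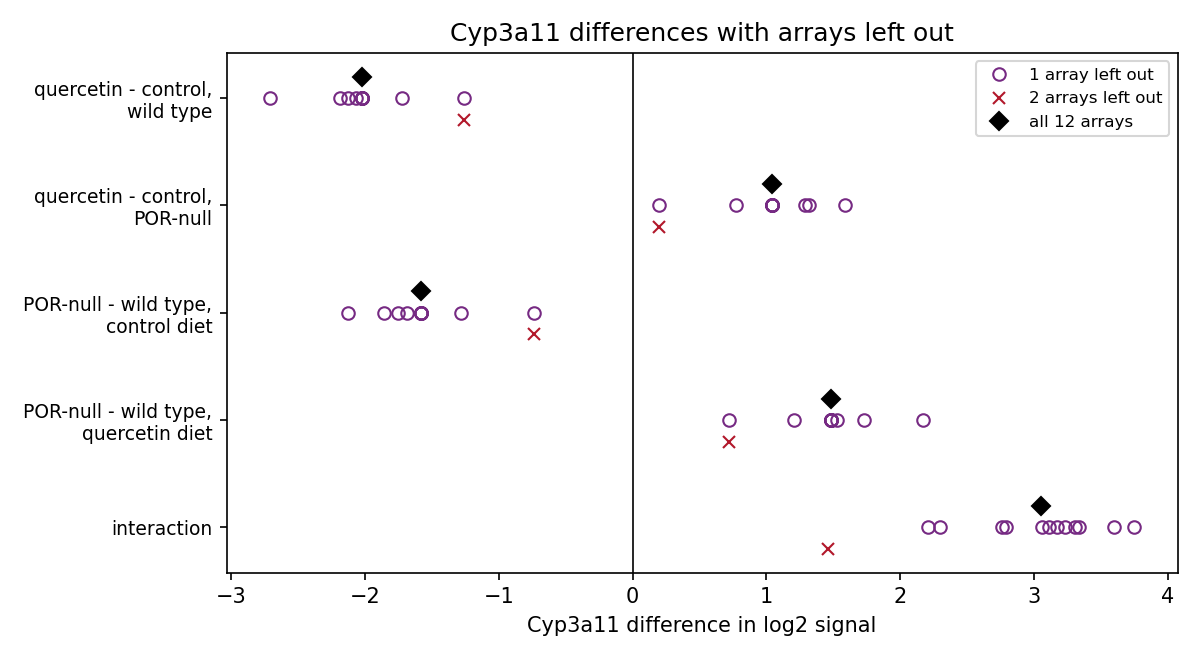
Cyp3a11 difference in log2 signal (horizontal axis) in the same 5 comparisons with all 12 arrays (diamonds), with each array left out in turn (circles) and without wild type quercetin array 1 and POR-null control array 3 (crosses). The quercetin difference in wild type mice ran from -2.71 to -1.26 and that in POR-null mice from 0.20 to 1.59 with 1 array left out.

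Cyp3a11 and Cyp3a25 followed each other from array to array. Over the 12 arrays Pearson's r was 0.86 (permutation p = 0.00052, adjusted 0.0109 over 21 relations) and Spearman's rho was 0.82 (permutation p = 0.00198, adjusted 0.0208). Without wild type quercetin array 1 and POR-null control array 3, the arrays farthest from the Cyp3a11 median, r was 0.85 over 10 arrays. After each group's mean was taken away r was 0.78. Cyp3a13 correlated weakly with both, with r of 0.22 to Cyp3a11 and 0.10 to Cyp3a25 (adjusted permutation p 0.868 and 0.885). The permutations of these and the later correlations ran over all 12 arrays and ignored the groups. Their p therefore also takes in differences between groups, and no p is given for r with the group means taken away.

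**Figure D4:**
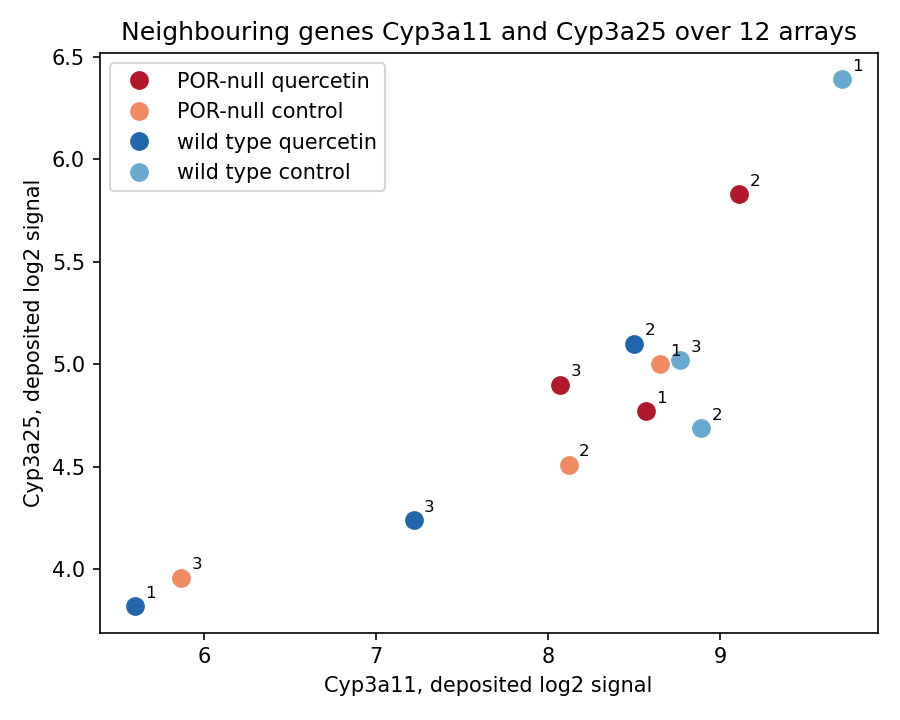
Deposited log2 signal of Cyp3a25 (vertical axis) against Cyp3a11 (horizontal axis) on 12 arrays, coloured by group and marked with the array number. Wild type quercetin array 1 and POR-null control array 3 lie at the low end of both axes and wild type control array 1 at the high end.

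The genes whose signal was most like that of Cyp3a11 over the 12 arrays included genes of small intestinal fat and sugar handling. Among 7299 genes at or above the median signal, the closest by Pearson's r were Fabp1 (0.934), a fatty acid binding protein, Lct (0.916), the brush border lactase, Apoa4 (0.915), an apolipoprotein, Itln1 (0.884), an intestinal lectin, and Bst2 (0.880), an interferon-induced membrane protein. For Cyp3a25 they were Apoc3 (0.916), an apolipoprotein, Mttp (0.904), which loads lipid onto lipoproteins, Bst2 (0.904), Ms4a10 (0.902) and Tm4sf5 (0.888). For Cyp3a13 they were Slc13a1 (0.876), a sulphate carrier, Pcbp3 (0.869), Nobox (0.868), Hnf4aos (0.854) and Hpgd (0.853), a prostaglandin dehydrogenase. These are the highest r among all candidates, so each is a description. An r of at least 0.8 was reached by 14 genes (0.192%) for Cyp3a11, by 19 (0.26%) for Cyp3a25 and by 18 (0.247%) for Cyp3a13. Of the 14 small intestine genes among the candidates, 4 reached it for Cyp3a11, 6 for Cyp3a25 and 0 for Cyp3a13. The median r to those 14 genes was 0.65, 0.78 and 0.30 for Cyp3a11, Cyp3a25 and Cyp3a13.

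Lct read 6.79, 7.50 and 6.40 in POR-null mice on quercetin, 7.05, 6.04 and 4.56 in POR-null mice on control diet, 4.53, 7.72 and 6.36 in wild type mice on quercetin and 8.07, 6.60 and 6.47 in wild type mice on control diet. Its arrays at 4.53 and 4.56 were the same wild type quercetin array 1 and POR-null control array 3 that were lowest for Cyp3a11. Fabp1 read 7.01, 8.16 and 7.35 and then 7.59, 7.38 and 5.06 in POR-null mice on quercetin and on control diet, and 4.59, 8.01 and 7.40 and then 9.36, 7.53 and 7.67 in wild type mice on quercetin and on control diet. Its lowest arrays were again those same ones. Both genes, like Cyp3a11, were highest on wild type control array 1. Apoa4 read 7.66 on POR-null control array 3 and 7.46 on wild type quercetin array 1, and from 9.04 to 10.86 on the other 10 arrays. With the group means taken away, the genes closest to Cyp3a11 were Lct (0.969), Mdh2 (0.964), a mitochondrial dehydrogenase, Rpl41 (0.946), a ribosomal protein, Apoa4 (0.940) and Fabp1 (0.939). For Cyp3a25 they were Ms4a10 (0.961), Treh (0.947), the brush border trehalase, Supt5 (0.943), Eef1d (0.938) and Bst2 (0.930), and for Cyp3a13 Marveld3 (0.952), Srrd (0.938), Atp6v0a2 (0.930), Krt20 (0.921) and Coq4 (0.920).

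**Figure D5:**
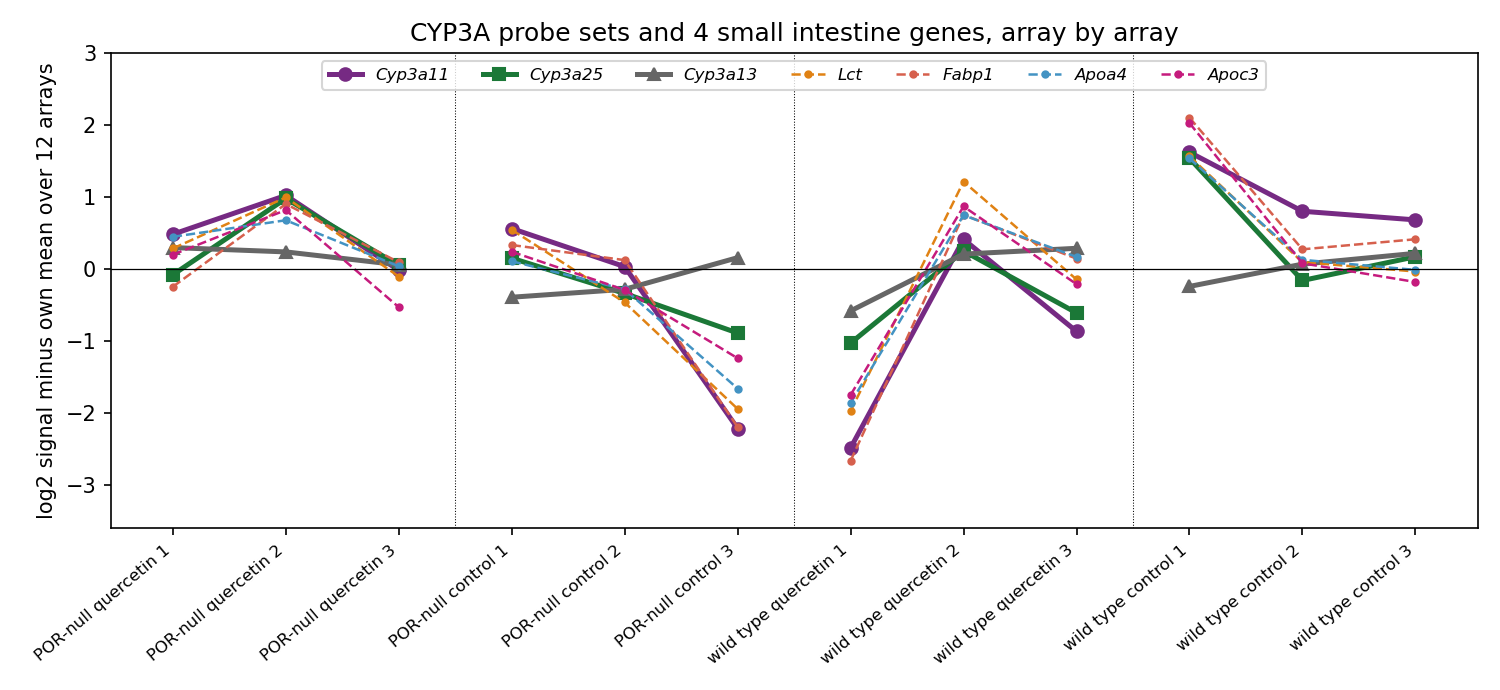
Log2 signal minus the gene's own mean over 12 arrays (vertical axis) for the 3 CYP3A genes (thick lines) and the small intestine genes Lct, Fabp1, Apoa4 and Apoc3 (dashed lines) on each array (horizontal axis); lines join arrays only to guide the eye, since arrays have no order. The small intestine genes drawn were among those most correlated with Cyp3a11 or Cyp3a25, and other genes of the list, such as Fabp6 and Slc15a1, are not drawn. The genes drawn share the low arrays of Cyp3a11, wild type quercetin 1 and POR-null control 3. The mean of the whole small intestine list was 7.38 on POR-null control 3 and lower, at 7.25, on POR-null control 2.

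The whole small intestine list, of which 15 of 18 genes were measured, was tallied beside these values. Its mean log2 signal per array ran from 7.39 to 7.98 in POR-null mice on quercetin, 7.25 to 7.58 in POR-null mice on control diet, 6.79 to 8.16 in wild type mice on quercetin and 7.54 to 8.56 in wild type mice on control diet. Its lowest array was wild type quercetin array 1 and its highest wild type control array 1, while POR-null control array 3 read 7.38. In wild type mice on quercetin 2 of its genes had a positive and 13 a negative difference (median -0.44), against a median of 0.00 over all probe sets. In POR-null mice on quercetin 12 were positive and 3 negative (median 0.26), and on control diet 1 was positive and 14 negative for POR-null minus wild type (median -0.65). That positive gene was Slc15a1, at 6.81 in POR-null and 6.05 in wild type mice (0.76, SE 0.25). Fabp6 also had signs opposite to Cyp3a11. It averaged 7.40 on quercetin and 6.54 on control diet in wild type mice. For POR-null minus wild type on quercetin it differed by -1.66 (SE 0.98), where 11 list genes were positive and 4 negative. No gene of the list passed in any comparison by limma. Cyp3a25 correlated with the list mean at r = 0.81 (permutation p = 0.00155, adjusted 0.0163; rho 0.86, permutation p = 0.00044, adjusted 0.00924) and Cyp3a11 at r = 0.74 (permutation p = 0.00459, adjusted 0.0241; rho 0.71, permutation p = 0.0108, adjusted 0.0566). Without wild type control array 1 and wild type quercetin array 1 these r were 0.55 and 0.42, so the relations rest largely on those arrays. With the group means taken away, r over all 12 arrays was 0.79 for Cyp3a25 and 0.70 for Cyp3a11. The members and lists were chosen with earlier results of these data known, which none of the correlation p-values takes into account. In such bulk RNA fewer cells of a type and less RNA per cell cannot be told apart, and the part of the tissue mix in the CYP3A differences was not tested.

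The colon itself was present on every array. The colonocyte list, 12 of 13 genes measured, averaged 11.56 to 11.94, with carbonic anhydrase Car1 at 12.24 to 13.31 and the chloride exchanger Slc26a3 at 9.83 to 10.88. Liver markers, 11 of 12 measured, averaged 5.56 to 5.92, with Fga at 3.60 to 3.89 and Fgb at 3.80 to 4.26, and Alb at 5.39 to 6.10. Others of the list were brighter, with Ttr at 6.59 to 7.52. Tat averaged 7.44 and 7.64 in POR-null mice on quercetin and on control diet. Pancreatic acinar genes averaged 6.53 to 9.88 in POR-null mice on quercetin, 6.20 to 6.29 in POR-null mice on control diet, 6.09 to 7.19 in wild type mice on quercetin and 6.22 to 8.94 in wild type mice on control diet. Cyp3a25 correlated with that list at r = 0.80 (permutation p = 0.00299, adjusted 0.0209; rho 0.68, permutation p = 0.0183, adjusted 0.0769), which was 0.44 without its 2 highest arrays. Cyp3a11 correlated with it at r = 0.61 (permutation p = 0.0285, adjusted 0.12; rho 0.73, permutation p = 0.00961, adjusted 0.0566), which was 0.55 without them. Of 11 measured acinar genes, 10 had a negative quercetin difference in wild type mice (median -1.19) and 10 a positive one in POR-null mice (median 1.62). The interaction was positive for 10 (median 2.97), so these signs were those of Cyp3a11. For the interaction 9 of the 11 were under 0.05 unadjusted by limma, against 4.74% of all probe sets. Smooth muscle genes averaged 7.23 to 7.61 in POR-null mice on quercetin, 6.18 to 7.66 in POR-null mice on control diet, 6.27 to 9.38 in wild type mice on quercetin and 5.93 to 6.13 in wild type mice on control diet, and immune genes 6.92 to 7.30, 7.21 to 8.23, 7.15 to 8.10 and 6.31 to 7.49 in the same groups. Fibroblast and matrix genes averaged 6.44 to 7.23, 6.31 to 7.70, 6.79 to 7.81 and 5.49 to 7.06 in those groups. For quercetin in wild type mice, where Cyp3a11 differed by -2.02, the difference was positive for 13 of 13 smooth muscle genes (median 1.79), 13 of 13 immune genes (median 1.2) and 10 of 10 fibroblast and matrix genes (median 1.12). Of these, 10, 7 and 6 were under 0.05 unadjusted by limma, against 5.15% of all probe sets, and 0 passed after adjustment. Genes of a list were read on the same arrays, so these counts are not of independent genes. In POR-null mice the medians were 0.17, -0.58 and -0.21, and for POR-null minus wild type on control diet they were 1.34, 1.13 and 0.94. Cyp3a11 correlated with smooth muscle genes at r = -0.02 and with immune genes at r = -0.10 (adjusted permutation p 0.946 and 0.885). With the group means taken away these r were 0.59 and 0.65, and Cyp3a25 correlated with immune genes at 0.76 and with smooth muscle genes at 0.25, so the relation within groups was not that over all arrays. The part of these cells in the CYP3A differences was not tested.

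No transcript of the CYP3A regulators passed, and they varied by different amounts. Nr1i2, the PXR gene, averaged 7.81 and 7.79 in POR-null mice on quercetin and on control diet, and 7.85 and 7.74 in wild type mice on quercetin and on control diet. Its quercetin difference in wild type mice was 0.11 (SE 0.13, adjusted p 0.973 by limma). Hnf4a, a nuclear receptor of gut and liver epithelium, stayed between 10.87 and 11.15 on all 12 arrays. Vdr, the vitamin D receptor, averaged 9.39, 9.40, 9.35 and 9.27, and Rxra, the partner of PXR and of the vitamin D receptor, 7.85, 7.85, 7.77 and 7.78, in POR-null quercetin, POR-null control, wild type quercetin and wild type control mice. Of 22 measured regulators of 24 listed, 0 passed in any comparison, with medians of 0.05 in wild type and 0.01 in POR-null mice on quercetin. The regulator with the smallest unadjusted p on control diet was Ahr, the aryl hydrocarbon receptor, at 6.04 in POR-null and 5.63 in wild type mice (0.42, SE 0.19, adjusted p 0.734 by limma), while its other probe set gave -0.03. Cdx2, an intestinal homeobox factor, averaged 9.83 in POR-null and 10.28 in wild type mice on control diet (-0.45, SE 0.24, adjusted p 0.769 by limma), and its other probe set gave -0.58. Its interaction was 0.58 (SE 0.34, adjusted p 0.998 by limma), with 0.79 by the other probe set, the signs of Cyp3a11. Ppara, a fatty acid receptor, ran from 5.54 to 6.32 and Nr1h4, the bile acid receptor, from 6.97 to 7.85 over the 12 arrays.

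The other known targets of PXR and CAR did not pass either. Of 29 measured genes of 37 listed, 11 had a positive and 18 a negative quercetin difference in wild type mice (median -0.06), and 20 were positive and 9 negative in POR-null mice (median 0.08). On control diet 7 were positive and 22 negative for POR-null minus wild type (median -0.08). Under 0.05 unadjusted by limma were 4 of the 29 for quercetin in wild type mice (2 higher, 2 lower), against 5.15% of all probe sets. For POR-null minus wild type on control diet 7 were (3 higher, 4 lower), against 6.79%. For quercetin in POR-null mice 2 were, against 2.82%, and for the interaction 3 were, against 4.74%. Cyp2b10, the classical CAR target, differed by -0.31 (SE 0.23) on quercetin in wild type mice and by 0.36 (SE 0.23) in POR-null mice, with an interaction of 0.67 (SE 0.33, adjusted p 0.998 by limma) and the same sign in its 2 other probe sets. Abcc2, an export pump for conjugates, differed by 0.43 in wild type and 0.45 (SE 0.19) in POR-null mice on quercetin. Its signal was dim, with group means of 3.79 to 4.30 against a lower quartile of probe sets at 4.66 to 4.78 over the arrays. Sult1a1, a phenol sulphotransferase, differed by 0.57 (SE 0.31) on quercetin in POR-null mice and by -0.69 (SE 0.31) for POR-null minus wild type on control diet. Ephx1, an epoxide hydrolase, had the smallest unadjusted p of the list for quercetin in wild type mice and the sign opposite to Cyp3a11, at 6.72 on quercetin and 6.27 on control diet (0.45, SE 0.11, adjusted p 0.91 by limma). It differed by 0.34 for POR-null minus wild type on control diet and had an interaction of -0.46 (SE 0.15), again opposite to Cyp3a11. The glutathione transferases Gstm3 and Gsta4 had the signs of Cyp3a11, with -0.42 (SE 0.13) and -0.56 (SE 0.21) for quercetin in wild type mice and interactions of 0.59 (SE 0.18) and 0.82 (SE 0.29). Of the electron transfer partners of P450, 7 of 10 were measured and 7 had a negative quercetin difference in wild type mice (median -0.11), with the ferredoxin Fdx1 at -0.21 (SE 0.09). In POR-null mice 4 of these were positive and 2 negative, and no partner passed in any comparison.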

How the data were processed

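RNA of scraped colon epithelium was measured on Affymetrix 430A arrays, 12 in all, per the labels. The authors deposited log2 signal values with 2 decimals. Per the submitters' processing notes MAS5 and RMA were involved, with no role or version given, so which made the table is not given in the sources used here. Values ran from 2.70 to 14.09, above 11.09, the natural logarithm of the 16-bit scanner limit, and were taken as log2. Nothing was renormalized. Arrays had medians of 5.90 to 5.98, and their number limits the precision.

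Of 22690 probe sets 64 control sets were left out and 22626 tested, with no filter on signal. Names came from the array annotation, which gave 20380 probe sets 1 symbol, 691 several and 1555 none. A list gene was represented by its brightest probe set. All 12 arrays entered 1 fit in limma 3.58.1 (R 4.3.3, lmFit, eBayes with trend) with 4 group means and 7 contrasts, 8 residual and 4.91 prior degrees of freedom. All p-values were two-sided, with Benjamini-Hochberg adjustment over every probe set in a contrast. SE are those of the moderated fit. The fit was tested on simulated data. Correlations had 100000 permutations over all 12 arrays, which ignored the groups. Whether pools came from separate experiments is not stated, so p measures the spread between these pools. Alternatives were array centring, quantile normalization, a filter on dim probe sets, eBayes without trend, array weights, each comparison's groups alone, a replicate block and each array left out.

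Genes named besides the CYP3A members are listed CYP3A regulators, the up to 5 list genes of smallest unadjusted p in a comparison, marker genes, and the 5 genes most correlated with each member. The members and lists were chosen with earlier results of these data known. Leaving out 2 low Cyp3a11 arrays together and the exact permutation of diet labels within genotype were added after values were seen. Promoters are RefSeq sequences of GRCm38.p6, and all 3 members matched; the array files name no build.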

Additional observations from a re-analysis of the deposited data

Results flagged for a closer look

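Cyp3a11 had quercetin differences of opposite sign in the genotypes, 1.04 in POR-null mice and -2.02 in wild type mice, and the difference between them was 3.05 (SE 1.00). It is listed because the exact permutation of diet labels within genotype gave p = 0.035, while limma's adjusted p was 0.998. The permutation test was chosen after values were seen and covers a gene that was singled out. Its null is no diet difference in either genotype, so it does not test the interaction alone. With 1 array left out the interaction ran from 2.22 to 3.75, the exact permutation p ran from 0.01 to 0.09, and it was under 0.05 in 6 of 12 cases. Without wild type quercetin array 1 and POR-null control array 3 it was 1.46 (exact permutation p = 0.11).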

How the results depend on the processing

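No difference of Cyp3a11, Cyp3a25 or Cyp3a13 passed limma's adjusted threshold under any setting run. The filter on dim probe sets left Cyp3a25 out, so it gave no value there. With array weights the genotype average turned to 0.17 for Cyp3a11, -0.08 for Cyp3a13 and 0.05 for Cyp3a25. Without wild type quercetin array 1 and POR-null control array 3, a choice made after seeing the data, Cyp3a13 turned to 0.23 for quercetin in wild type mice, -0.05 for POR-null minus wild type on quercetin and -0.20 for the genotype average. The Cyp3a11 differences were then -1.26 (quercetin, wild type), 0.20 (quercetin, POR-null), -0.74 (genotype, control diet), 0.72 (genotype, quercetin diet) and 1.46 (interaction). With 1 array left out the ranges that crossed 0 were -0.43 to 0.37 (Cyp3a11), -0.12 to 0.10 (Cyp3a13) and -0.22 to 0.21 (Cyp3a25) for the genotype average, -0.33 to 0.10 for the quercetin average of Cyp3a25, and for Cyp3a13 -0.20 to 0.23 for quercetin in wild type mice and -0.05 to 0.39 for POR-null minus wild type on quercetin. For Cyp3a25 quercetin ran from -1.34 to -0.47 in wild type and 0.34 to 0.93 in POR-null mice, genotype from -1.22 to -0.36 on control diet and 0.45 to 1.14 on quercetin, and the interaction from 1.15 to 2.01. The cause was not tested.

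Counts of probe sets past the threshold were 0 in all 7 comparisons. With array weights 2 passed for quercetin in wild type mice and 399 for genotype on control diet. For genotype on quercetin diet 1 passed with the groups alone in the fit and 1 with the replicate block. Without the 2 low arrays 6 passed for quercetin in wild type mice, 7 for genotype on control diet, 1 for genotype on quercetin diet and 6 for the interaction. With 1 array left out the counts ran from 0 to 3 (quercetin, wild type), 0 to 1 (quercetin, POR-null), 0 to 41 (genotype, control diet), 0 to 1 (genotype, quercetin diet), 0 to 1 (interaction), 0 to 1 (quercetin average) and 0 to 2 (genotype average). The 41 and 2 were without wild type control array 1 and the 3 without wild type quercetin array 1. The labels do not say whether replicate numbers pair the arrays. Deviations from group means correlated from -0.192 to 0.260 (median 0.041) between same-numbered arrays of different groups. Otherwise they correlated from -0.267 to 0.209 (median -0.022). With 3 arrays a group these values cannot settle whether the numbers pair arrays. The replicate block changed no call of the 3 genes, with an adjusted p of 0.886 for Cyp3a11 and quercetin in wild type mice.

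Array number limits the precision, with 3 pools a group. The dim Cyp3a25 signal had no detection call, and probe sequences were not compared with its paralogs. Marker lists of other tissues differed between arrays, and their part was not tested.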
